A study of Mus musculus with 25 samples.

Results

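Aldo-keto reductases are enzymes that use NADPH to reduce aldehydes and ketones, among them sugars, steroids, prostaglandins and the aldehydes left by lipid oxidation. Akr1b7, the vas deferens protein of the mouse, is an androgen-dependent member that is abundant in the epithelium of the vas deferens and also occurs in the adrenal cortex, where it reduces an aldehyde released from cholesterol. Its relatives include aldose reductase (Akr1b3), liver hydroxysteroid dehydrogenases (Akr1c6, Akr1c14), an ovarian enzyme that inactivates progesterone (Akr1c18) and the widely expressed aldehyde reductase (Akr1a1). The genes described are Akr1b3, Akr1b7, Akr1b8, Akr1c6, Akr1c14, Akr1c18, Akr1cl and Akr1a1, 8 of the 24358 genes measured in sperm RNA. They were chosen by measured values, namely their counts in these conditions, because Akr1b7 was far higher and Akr1c6 far lower in some conditions, so these patterns are given as descriptions with no test. Another 12 aldo-keto reductase genes are given beside them.

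Total RNA of sperm from the cauda epididymis was sequenced in 25 libraries, 5 for each of 5 conditions. The vehicle conditions, named C57.CTL.F1 and FVB.CTL.F1 in the labels and C57 vehicle and FVB vehicle here, were C57BL/6J and FVB/N males of the first generation whose mothers received corn oil. The exposed males of that generation, labelled C57.D300.F1 and FVB.D300.F1 and called C57 DEHP and FVB DEHP here, had mothers that received 300 mg/kg/day of the plasticiser DEHP, bis(2-ethylhexyl)phthalate, by mouth from embryonic day 9 to 19. The last condition, labelled C57.D300.F2 and called C57 F2 here, held C57BL/6J sons that exposed males sired with unexposed females, and no vehicle F2 condition was analysed. The labels give an age of 14 weeks. Sperm were let out of incised cauda epididymides, and the study's methods state that the suspension was taken free of debris and its purity viewed under a microscope before extraction. After sequencing, the study also assessed purity by the lengths of the reads, set against a profile of mature sperm RNA. The labels mark all 10 libraries of C57 vehicle and C57 DEHP as re-analysed and leave the remaining 15 unmarked. The paper states that 10 samples were reused from an earlier series, so the other 15 are taken as new. A difference between C57 F2 or FVB/N and those older conditions therefore cannot be told apart from a difference between the sets of libraries. C57 F2 differs from FVB DEHP in strain and generation at once, and from FVB vehicle also in DEHP lineage. These cannot be told apart either.

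The deposited values are 1 estimated fragment count per gene and condition, which combines the 5 libraries, and the variance of that count under the model of Cuffdiff, the quantification program. No value has a replicate check here, and the SD given is the SD of the model. Counts summed to between 6921688 and 8602900 per condition, and 15883 to 16612 genes had at least 10 counts. A count of up to 3 was treated as the limit of detection, a limit that covers counting error only. A gene was called higher or lower at 2 log2 units of the ratio of counts, with 1 added to each count, if it had at least 10 counts in 1 of the conditions compared.

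Sperm markers were present in every condition and lower in C57 F2 and FVB/N than in the C57BL/6J F1 conditions. All 10 genes of late germ cells had at least 10 counts in each condition, and their summed count was 92624 in C57 vehicle, 77561 in C57 DEHP, 31216 in C57 F2, 7990 in FVB vehicle and 9483 in FVB DEHP. The 13 liver genes, led by Alb, summed to 218275, 187895, 5031, 1171 and 780 in the same order. Alb alone had a model SD of 4.11 and 4.42 times its count in C57 vehicle and C57 DEHP, and of at most 0.48 times in the other conditions. The 7 seminal vesicle genes summed to 235894 in C57 vehicle and to 693 to 2136 elsewhere, and the model SD of Svs2, Svs4 and Svs5 was 7.43 to 7.52 times the count in C57 vehicle. In such a mixture, fewer cells of a type and less RNA per cell cannot be told apart.

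Akr1b7 lies at the end of a cluster of 4 Akr1b genes that spans 121 kb of chromosome 6 (GRCm38, GENCODE M21). It occupies positions 34412334 to 34423142 on the plus strand, 15.4 kb beyond Akr1b10, its closest relative in transcript sequence with 89.4% of aligned bases identical. The 250 bases before the RefSeq start of Akr1b7 (chr6:34412112-34412361, plus strand) and of Akr1b10 (chr6:34383997-34384246, plus strand) are shown because the counts of these neighbours took different courses, and those of Akr1cl (chr1:65032760-65033009, minus strand) because Akr1cl shared the course of Akr1b7. Capitals mark TGTTCT, the core recognised by androgen and glucocorticoid receptors, then TGTTTAC, the forkhead core, and TGACCT, which is AGGTCA read on the other strand and is the core bound by many nuclear receptors.

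Akr1b7: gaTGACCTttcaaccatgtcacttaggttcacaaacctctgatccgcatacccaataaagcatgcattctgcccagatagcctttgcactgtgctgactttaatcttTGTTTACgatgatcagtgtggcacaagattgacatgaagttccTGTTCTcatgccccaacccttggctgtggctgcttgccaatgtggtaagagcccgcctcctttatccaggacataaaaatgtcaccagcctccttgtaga
Akr1b10: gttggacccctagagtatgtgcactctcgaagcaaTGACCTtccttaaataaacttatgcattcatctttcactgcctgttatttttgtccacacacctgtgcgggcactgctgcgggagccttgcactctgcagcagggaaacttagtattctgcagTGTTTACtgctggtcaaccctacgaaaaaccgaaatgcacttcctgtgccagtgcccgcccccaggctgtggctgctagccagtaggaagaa
Akr1cl: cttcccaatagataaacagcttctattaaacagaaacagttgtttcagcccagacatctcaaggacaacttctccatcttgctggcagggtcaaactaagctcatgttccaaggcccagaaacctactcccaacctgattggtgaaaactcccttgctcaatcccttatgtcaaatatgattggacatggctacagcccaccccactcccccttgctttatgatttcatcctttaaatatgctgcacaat

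The Akr1b7 window held TGTTCT 100 bases before the start, TGTTTAC 143 bases before it and TGACCT 248 bases before it. The Akr1b10 window held TGTTTAC 92 bases and TGACCT 215 bases before its start, and no TGTTCT on either strand. The Akr1cl window held none of these letters, and neither did the windows of Akr1b8, Akr1c6, Akr1c14, Akr1c18 and Akr1a1. Promoter windows were found for 7 of the 8 members, all but Akr1b3. Of 32851 RefSeq windows of that length, 16.1% held TGTTCT, 3.17% TGTTTAC and 14.0% AGGTCA, on either strand. These are matches of letters, not binding sites.

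Akr1b7 was low in both C57BL/6J F1 conditions and high in the other 3. Its count was 127 in C57 vehicle (model SD 33.2), 98.8 in C57 DEHP (26.4), 5508 in C57 F2 (3051), 14293 in FVB vehicle (9103) and 5954 in FVB DEHP (2516). The C57 F2 count was 43.4-fold that of C57 vehicle and 55.7-fold that of C57 DEHP, or 5.43 and 5.79 on the log2 scale. The FVB/N counts were 112-fold (6.80) higher than those of C57BL/6J under vehicle and 60.3-fold (5.90) higher under DEHP. Each of these 4 differences was larger than its model SD, for instance 5381 against 3051 for C57 F2 and C57 vehicle. The highest count was 145-fold the lowest. Of 17701 genes with at least 10 counts, 138 had a range at least as wide, whereas the median gene had a range of 0.89 log2 units. Akr1b7 was chosen for such differences, so its place among all genes describes the choice.

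**Figure D1:**
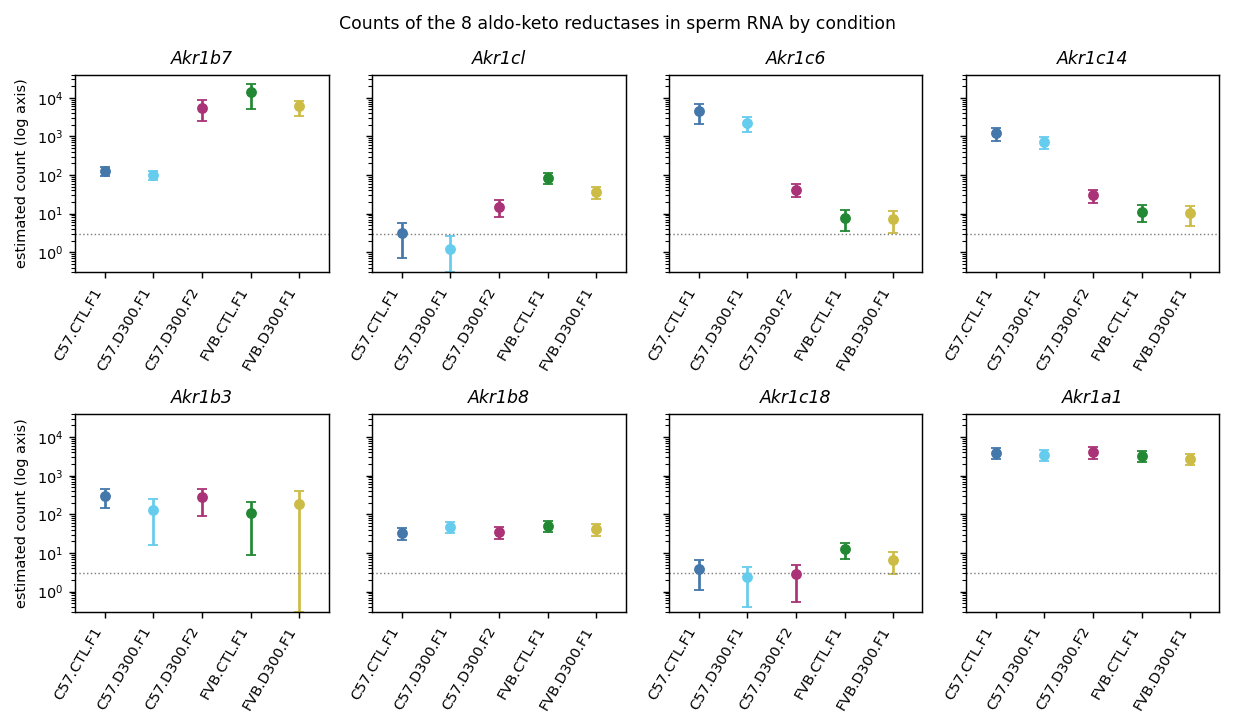
Estimated counts (log axis) of the 8 aldo-keto reductases in the 5 conditions. Points are the authors' counts, bars the SD of the model, cut at the lower edge of the axis, and the dotted line marks 3 counts. Akr1b7 lies between 98.8 and 14293, Akr1c6 is high where Akr1b7 is low, between 4489 and 7.30, and Akr1a1 lies between 2774 and 4100. The axis uses the names of the labels.

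Within each strain, DEHP went with no called change of Akr1b7. The C57 DEHP count was lower than that of C57 vehicle by 28.3, less than the model SD of 42.4, at a log2 ratio of -0.36. The FVB DEHP count was lower than that of FVB vehicle by 8340, less than the model SD of 9445, at a log2 ratio of -1.26. Among the conditions whose libraries were made for this study, Akr1b7 was 2.59-fold higher in FVB vehicle than in C57 F2, a difference of 8785 against a model SD of 9601. C57 F2 and FVB DEHP differed by 445 counts against a model SD of 3955, so no pair of these 3 conditions differed in Akr1b7 by more than the model SD.

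Per kb of its longest coding transcript, a scale on which genes can be compared, Akr1b7 had 99.2 counts in C57 vehicle and 77.1 in C57 DEHP, where it ranked 4648 and 5650 among 19780 protein-coding genes. It had 4300 counts per kb in C57 F2, 11158 in FVB vehicle and 4648 in FVB DEHP, at ranks 52, 19 and 50. Among the 20 aldo-keto reductase genes, its share of the summed count per kb was 1.14% in C57 vehicle and 1.29% in C57 DEHP, against 50.0%, 69.6% and 49.6% in C57 F2, FVB vehicle and FVB DEHP. Akr1c6 held 36.9% and 26.6% of that sum in the C57BL/6J F1 conditions and at most 0.35% elsewhere. The largest share thus belonged to Akr1c6 in C57 vehicle, to Akr1a1 in C57 DEHP, at 40.6%, and to Akr1b7 in the other 3 conditions. In FVB DEHP this depended on the length used. Akr1c19, with a longest coding transcript of 5.83 kb against 1.28 kb, had 9408 counts there and Akr1b7 5954.

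**Figure D2:**
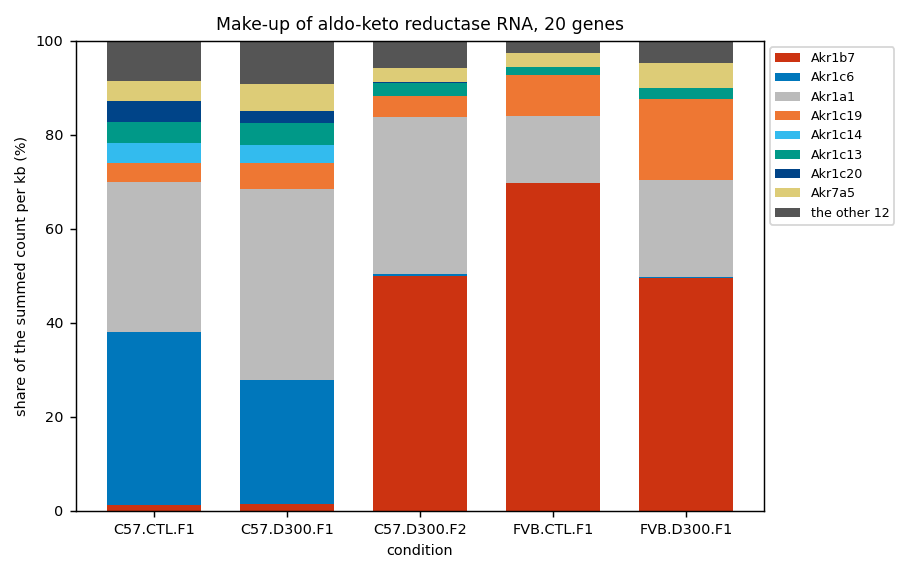
Share of the summed count per kb (%) that each of 20 aldo-keto reductase genes held in each condition, with 12 of them pooled. Akr1b7 made up 1.14% of the sum in C57 vehicle and 69.6% in FVB vehicle, and Akr1c6 36.9% and 0.04%.

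The other genes of the chromosome 6 cluster did not take this course. Akr1b8, which responds to fibroblast growth factor, had 32.6, 46.9, 35.2, 49.9 and 41.0 counts in C57 vehicle, C57 DEHP, C57 F2, FVB vehicle and FVB DEHP, and none of its 8 differences between conditions exceeded the model SD. Akr1b10 had 62.0, 59.7, 99.4, 105 and 88.4 counts in the same order, with log2 ratios of 0.67 in C57 F2 and 0.75 in FVB vehicle against C57 vehicle. Akr1b7 shares 7.59% of its 30-base windows with Akr1b10, so a part of its reads could have been assigned to either gene.

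Akr1b3, aldose reductase, converts glucose to sorbitol, the entry step of the polyol pathway that yields fructose in the male tract. Its count was 300 in C57 vehicle, 131 in C57 DEHP, 279 in C57 F2, 109 in FVB vehicle and 188 in FVB DEHP, with model SDs of 0.53 to 1.15 times the count. The transcript shares 61.3% of its 30-base windows with the pseudogene Gm6644 on chromosome 1 (positions 55444074 to 55445024), which had 220, 295, 254, 555 and 540 counts in the same order. The summed counts were 520, 426, 533, 664 and 728, and the log2 ratio of FVB vehicle to C57 vehicle was -1.45 for Akr1b3 alone and 0.35 for the sum. How Cuffdiff divided the shared reads is not given, so the direction for Akr1b3 is uncertain.

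Akr1c6, which in the mouse liver interconverts weak and potent sex steroids, was high where Akr1b7 was low. Its count was 4489 in C57 vehicle (model SD 2419), 2219 in C57 DEHP (956), 41.8 in C57 F2 (15.3), 7.90 in FVB vehicle (4.24) and 7.30 in FVB DEHP (4.20). It was 108-fold lower in C57 F2 than in C57 vehicle, 53.1-fold lower than in C57 DEHP, and the FVB/N counts were 569-fold and 304-fold lower than those of C57BL/6J under vehicle and under DEHP. Among the libraries made for this study it was also lower in FVB vehicle than in C57 F2, by 33.9 counts against a model SD of 15.8. Only 26 of the 17701 genes had a range at least as wide as that of Akr1c6, which was also chosen for such differences.

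Akr1c14, a hydroxysteroid dehydrogenase that takes part in the breakdown of androgens, followed the same order. Its count was 1192 in C57 vehicle (model SD 444), 728 in C57 DEHP (250), 29.9 in C57 F2 (11.4), 11.3 in FVB vehicle (5.30) and 10.5 in FVB DEHP (5.63). Relative to C57 vehicle the count was 39.9-fold lower in C57 F2 and 106-fold lower in FVB vehicle, and both differences exceeded their model SD. The counts of C57 vehicle and C57 DEHP differed by 2270 for Akr1c6 and 464 for Akr1c14, against model SDs of 2601 and 510.

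Both genes lie in the Akr1c cluster of chromosome 13, which spans 560 kb. Akr1c14 is at positions 4049011 to 4090688 and Akr1c6 at 4434306 to 4457877 on the plus strand. The low counts were not shared along the cluster. Akr1c20, 29.0 kb from Akr1c6, had 504, 211, 7.19, 9.16 and 2.32 counts, whereas Akr1c13 had 488, 346, 299, 353 and 261. Akr1c19 went the other way, with 2090, 1956, 2179, 8089 and 9408 counts, and its log2 ratio was 2.27 between the strains under DEHP and 1.95, just under the threshold, under vehicle. Akr1c12 had 312, 199, 112, 148 and 135 counts. Akr1c12 and Akr1c13 share 40.0% of their 30-base windows, so counts may have been divided between them. Akr1c6 shares 8.85% of its windows with Akr1c20.

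**Figure D3:**
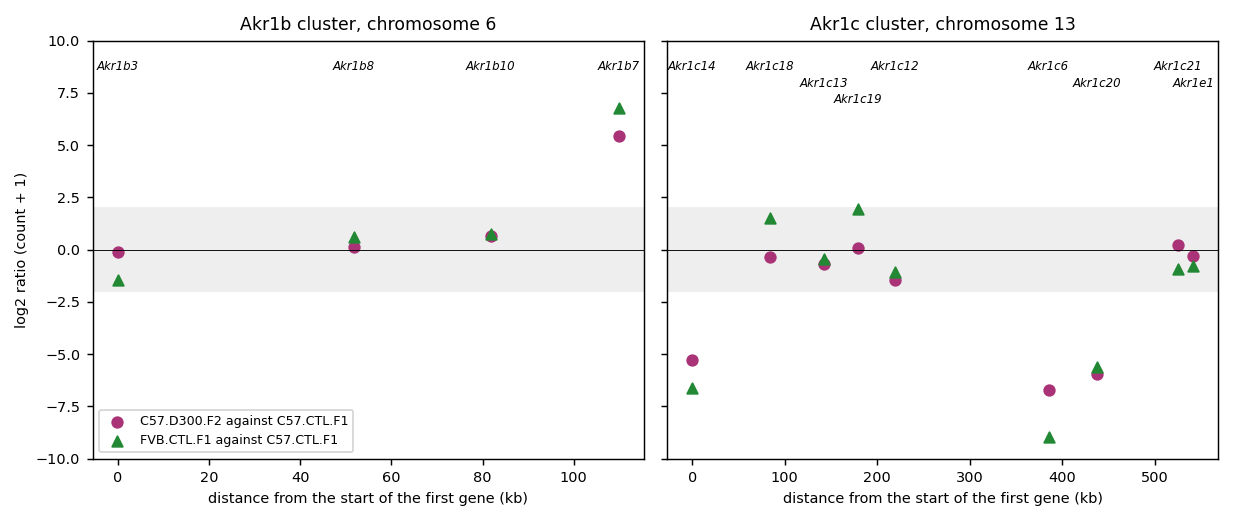
Log2 ratios of counts against C57 vehicle (y axis) for the genes of the Akr1b cluster (left) and the Akr1c cluster (right), placed by the distance of their start from that of the first gene (x axis, kb). Circles are C57 F2, triangles FVB vehicle and the grey band covers 2 log2 units either way. Akr1b7 alone lies above the band on the left, at 5.43 and 6.80, and Akr1c14, Akr1c6 and Akr1c20 lie below it on the right.

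Akr1c18 had low counts throughout, with 3.76 in C57 vehicle, 2.39 in C57 DEHP, 2.77 in C57 F2, 12.6 in FVB vehicle and 6.59 in FVB DEHP. The first 3 counts were near or under the limit of detection. The FVB vehicle count exceeded that of C57 vehicle by 8.83 against a model SD of 6.26, at a log2 ratio of 1.51 that was not called.

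Akr1cl, an Akr1c-like gene on chromosome 1 (positions 65012689 to 65032759, minus strand), moved with Akr1b7 at far lower counts. It had 3.18 counts in C57 vehicle (model SD 2.45), 1.25 in C57 DEHP (1.41), 15.2 in C57 F2 (6.93), 84.8 in FVB vehicle (25.9) and 36.9 in FVB DEHP (13.5). The count was 26.7-fold higher in FVB vehicle than in C57 vehicle and 5.57-fold higher than in C57 F2, and both differences exceeded their model SD. With DEHP in FVB/N it was lower, at 36.9 against 84.8, a difference above its model SD that was not called. Akr1cl was the only member whose difference with DEHP exceeded the model SD in either strain. The log2 ratio of C57 F2 to C57 vehicle was 1.96, just outside the threshold, and that of C57 F2 to C57 DEHP was 2.85, although the lower count was under the limit of detection. Its transcript shares 1.67% of its windows with another gene, Akr1c18.

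Akr1a1, the aldehyde reductase that also serves vitamin C synthesis in the mouse, was steady. Its count was 3948 in C57 vehicle, 3447 in C57 DEHP, 4100 in C57 F2, 3269 in FVB vehicle and 2774 in FVB DEHP, and none of the 8 differences exceeded the model SD. The highest count was 1.48-fold the lowest. Per kb of transcript its level held rank 148, 136, 80, 118 and 146 among protein-coding genes in the same order.

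In each contrast the calls among members can be set beside those among all genes. With DEHP in the F1, none of the 6 members with enough counts was called in C57BL/6J, where 0.0357% of genes were called higher and 0.256% lower, and none of 7 in FVB/N, where 0.662% were higher and 0.0182% lower. In C57 F2 against C57 vehicle, 1 member was higher (Akr1b7, background 0.584%) and 2 were lower (Akr1c6 and Akr1c14, background 3.61%). Against C57 DEHP, 2 were higher (Akr1b7 and Akr1cl, background 0.333%) and the same 2 were lower (background 3.3%). Both contrasts share the C57 F2 libraries, and the members were chosen for such differences, so the counts describe the choice.

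Between strains, Akr1b7 and Akr1cl were higher and Akr1c6 and Akr1c14 lower in FVB/N, both under vehicle (backgrounds 1.44% higher and 8.88% lower) and under DEHP (2.65% and 7.67%). The vehicle contrast shares its C57 vehicle libraries with that of C57 F2. Among the conditions made for this study, Akr1cl was higher and Akr1c6 lower in FVB vehicle than in C57 F2 (backgrounds 0.707% and 2.5%). In FVB DEHP against C57 F2, no member was higher and Akr1c6 was lower (backgrounds 1.58% and 2.02%). With totals made equal between conditions, 32.4% of all calls in that last contrast were higher instead of 43.9%.

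**Figure D4:**
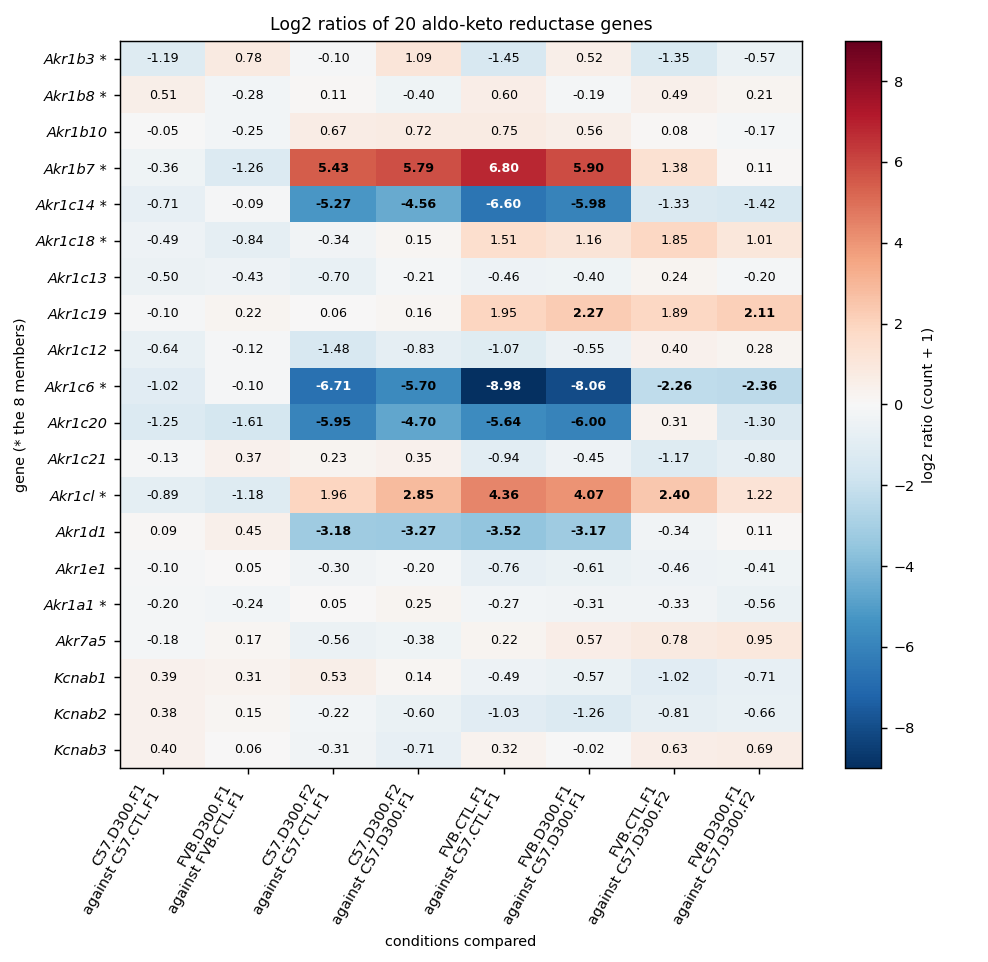
Log2 ratios of counts, with 1 added, for 20 aldo-keto reductase genes (rows, members starred, clusters in genomic order) in 8 contrasts (columns). Bold values are called. Calls fall almost entirely in the 4 contrasts between the re-analysed C57BL/6J F1 conditions and the others, where Akr1b7 lies between 5.43 and 6.80 and Akr1c6 between -8.98 and -5.70.

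The log2 effect of DEHP in FVB/N minus that in C57BL/6J was under 2 units for all 8 members, whereas 1.22% of all genes passed it either way. It was -0.90 for Akr1b7, 0.92 for Akr1c6 and 1.97, just under the threshold, for Akr1b3. With the counts of Gm6644 added to those of Akr1b3, the last value was 0.42.

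Of the other 12 family genes, 10 had enough counts to compare C57 F2 with C57 vehicle. Among these, 2 were lower, namely Akr1c20 and Akr1d1, and none was higher, beside 3.61% and 0.584% of all genes. Akr1d1, which reduces the steroid nucleus in bile acid synthesis in the liver, had 304, 324, 32.6, 25.6 and 35.2 counts, 9.31-fold fewer in C57 F2 than in C57 vehicle. Both were also called lower when FVB/N was set against C57BL/6J, under vehicle and under DEHP (backgrounds 8.88% and 7.67%). Akr1c19 was higher in FVB DEHP than in both C57 DEHP and C57 F2 (backgrounds 2.65% and 1.58%). The remaining 9 genes, among them Akr1e1, Akr7a5 and the potassium channel subunits Kcnab1, Kcnab2 and Kcnab3, were not called in any of the 8 contrasts.

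The lower Akr1c genes moved together with the liver markers. In C57 F2 against C57 vehicle, all 13 liver markers were lower, with a median log2 ratio of -5.41 (range -6.65 to -4.35), beside -6.71 for Akr1c6, -5.95 for Akr1c20, -5.27 for Akr1c14 and -3.18 for Akr1d1. In FVB vehicle against C57 vehicle the median was -7.30 (range -8.57 to -5.79), beside -8.98, -5.64, -6.60 and -3.52 for the same genes. In each of these contrasts, the difference exceeded its model SD for 10 of the 13 markers, Alb not among them. The median over all genes tested was -0.04 and -0.03. Among the conditions made for this study, all 13 liver markers were below 0 in both FVB/N conditions against C57 F2. In FVB vehicle 5 were called lower (median -1.90, background 2.5%), beside -2.26 for Akr1c6. In FVB DEHP 10 were called lower (median -2.56, background 2.02%), beside -2.36 for Akr1c6. The 5 genes whose profile over the 5 conditions was most like that of Akr1c6, out of 17700, were Cyp3a11, Ttr, Cfhr2, Serpina3k and Sult2a8, with root mean square differences of 0.18 to 0.28 log2 units. With 10 added to each count, 2 of these 5 stayed among the closest, and Ugt2b5, Serpina1e and Cyp2d9 took the other places. Cyp3a11, a drug-metabolising cytochrome and the closest of them, had 13468, 6338, 133, 35.5 and 25.6 counts in C57 vehicle, C57 DEHP, C57 F2, FVB vehicle and FVB DEHP. The 5 first named are made chiefly in the liver, and Cyp3a11 and Ttr are on the marker list. Per kb, Akr1c6 stood at 3216 counts in C57 vehicle, rank 129, and at 5.66 in FVB vehicle, rank 13376. The part of liver RNA in these values was not tested.

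The higher Akr1b7 counts were not shared by the epithelial markers of the duct as a group. None of the 11 epithelial markers of the epididymis and vas deferens was called in any of the 8 contrasts. In C57 F2 against C57 vehicle their median log2 ratio was 0.24 (range -0.70 to 0.62), and in FVB vehicle against C57 vehicle it was 0.18 (range -0.91 to 1.26), beside 5.43 and 6.80 for Akr1b7. Of the 10 epididymal genes, 7 had enough counts in each of these contrasts, and none and 1 of them were called higher, at medians of 0.35 and 0.64. In FVB DEHP against C57 DEHP, however, 8 of 10 were called higher (median 6.44, background 2.65%), beside 5.90 for Akr1b7. In FVB DEHP against FVB vehicle, 7 of 10 were called higher (median 5.74, background 0.662%), beside -1.26 for Akr1b7. Their summed count was highest in FVB DEHP, at 185876, where Gpx5 reached 24121 counts and Akr1b7 was below its level in FVB vehicle. The 8 markers of steroid-making cells summed to 134 to 377 counts per condition, with 5.12 to 10.3 counts of Cyp11a1, which opens steroid synthesis. Another gene of that list, the androgen synthesis enzyme Cyp17a1, had 43.2, 18.6, 85.6, 136 and 241 counts in C57 vehicle, C57 DEHP, C57 F2, FVB vehicle and FVB DEHP. Like Akr1b7 it was lowest in the C57BL/6J F1 conditions. It was called higher in C57 F2 and in FVB DEHP than in C57 DEHP, at log2 ratios of 2.14 and 3.62. No other gene of the list was called in these contrasts. The medians of the list there were 0.33 (5 with enough counts, 2 below 0) and 0.06 (4, 2 below 0). Against C57 vehicle, no gene of the list was called in C57 F2 (4 with enough counts, median 0.70) or FVB vehicle (3, median 0.29). In FVB vehicle against C57 F2, 1 other gene of the list was called lower, at -2.24. Markers that are limited to the vas deferens were not on these lists, and the part of that tissue in the Akr1b7 counts was not tested.

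**Figure D5:**
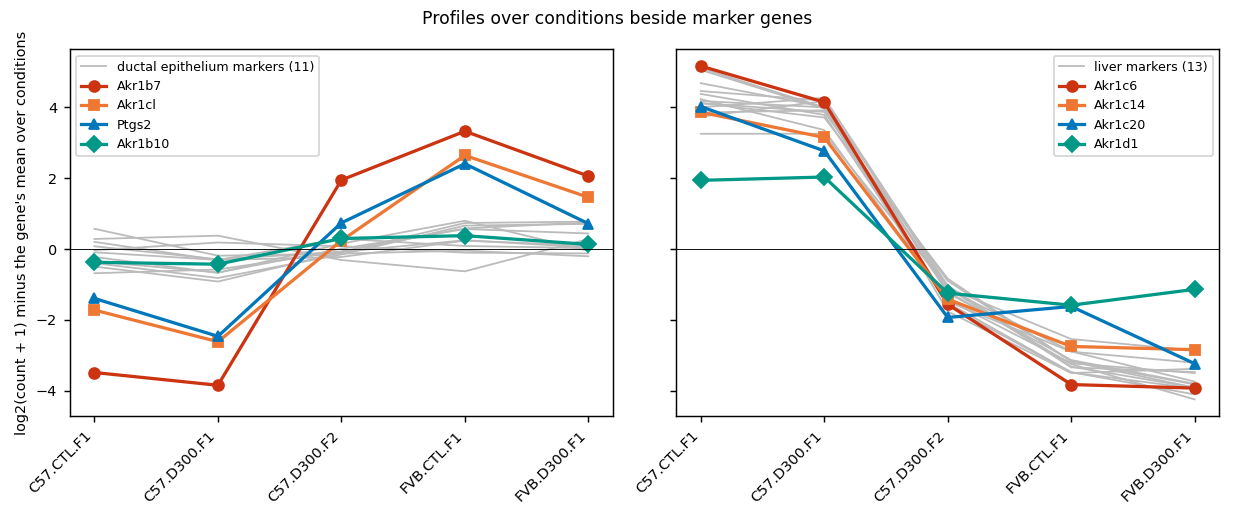
Profiles over the 5 conditions, as log2(count + 1) minus the mean of the gene, where lines join the values of 1 gene. Left, Akr1b7, Akr1cl, Ptgs2 and Akr1b10 with 11 epithelial markers in grey; right, Akr1c6, Akr1c14, Akr1c20 and Akr1d1 with 13 liver markers in grey. Akr1b7 departs from the grey lines on the left, while Akr1c6 runs with those on the right.

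The genes most like Akr1b7 in profile, out of 17700, were Gm9573, Crygc, Kcnj16, Defb22 and Akr1cl, at 0.53 to 1.29 log2 units. Gm9573, the closest, had 2.91, 2.11, 60.8, 331 and 132 counts in C57 vehicle, C57 DEHP, C57 F2, FVB vehicle and FVB DEHP. Kcnj16, a potassium channel, had 13.6, 10.2, 155, 552 and 199, and Defb22, a beta-defensin that coats sperm, had 13.2, 3.99, 77.1, 457 and 778. Of these 5 genes, 3 were also among the closest when 10 was added to each count, and Ptgs2 and Mfsd2a took the other places. Akr1c14 stood at rank 17572 by likeness to Akr1b7 and at rank 106 by likeness to Akr1c6.

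Prostaglandin genes were examined because Akr1b7 can act as a prostaglandin F synthase. Ptgs2, the inducible cyclooxygenase that makes the precursor of prostaglandins, ranked 7 by likeness to Akr1b7. It had 748 counts in C57 vehicle, 356 in C57 DEHP, 3276 in C57 F2, 10401 in FVB vehicle and 3227 in FVB DEHP, and its log2 ratios to C57 vehicle were 2.13 in C57 F2 and 3.80 in FVB vehicle. It was the only gene of 19 called in the former contrast, where 0.584% of all genes were higher and 3.61% lower. In the latter, 2 of 19 were higher and none was lower, beside 1.44% and 8.88% of all genes. The other gene that was higher was the carbonyl reductase Cbr3, with 25.9 against 185 counts. Ptges and Ptgds, which make prostaglandins of the E and D series, were not called. The median of the whole list was 0.43 and -0.08 in these contrasts. With DEHP in the F1, Ptgs2 had the lowest ratio of the list, at -1.07 in C57BL/6J and -1.69 in FVB/N. Neither ratio was called, although both differences exceeded their model SD. Of the 18 genes of the list with enough counts, 10 were above 0 in C57BL/6J and 6 in FVB/N.

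In the polyol pathway, 1 of 6 genes was lower in C57 F2 than in C57 vehicle, namely the fructose kinase Khk, beside 3.61% of all genes. In FVB vehicle against C57 vehicle, 3 of 6 were lower, beside 8.88% of all genes. Sord, which turns sorbitol into fructose, had 8692, 6748, 2538, 400 and 481 counts, a log2 ratio of -4.44 in FVB vehicle, and Hk1, a hexokinase with a sperm form, had 7614, 6113, 3221, 846 and 889. Sord is also an abundant RNA of late germ cells, whose 10 markers were all lower in FVB vehicle, with a median log2 ratio of -3.03. No gene of the list was higher in any contrast.

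Of 24 hydroxysteroid dehydrogenases, 18 had enough counts to compare C57 F2 with C57 vehicle, and 9 of them were lower and none was higher, beside 3.61% and 0.584% of all genes. In FVB vehicle against C57 vehicle, 8 of 19 were lower and 1 was higher, beside 8.88% and 1.44% of all genes. In C57 vehicle, C57 F2 and FVB vehicle, Rdh7 had 1976, 47.3 and 22.0 counts, Hsd3b5 had 444, 6.37 and 3.98, and Hsd17b2, which inactivates sex steroids, had 288, 19.9 and 18.3. Rdh7 and Hsd3b5 are liver genes, and the liver markers moved with them as above. The gene that was higher was Hsd17b3, the testis enzyme that makes testosterone, with 2.57 counts in C57 vehicle, 1.07 in C57 DEHP, 2.48 in C57 F2, 17.2 in FVB vehicle and 29.8 in FVB DEHP. With DEHP in the F1, no gene of these lists was called in either strain.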

How the data were processed

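Sperm RNA of 25 mouse libraries in 5 conditions was analysed. The authors extracted total RNA with TRIZOL, removed ribosomal RNA, fragmented the rest, treated its ends and made TruSeq small RNA libraries. They called bases with CASAVA 1.8.2, clipped the adapter, kept reads of at least 18 bases, mapped them as stranded reads to mm10 with TopHat, and ran Cuffdiff. The deposited table holds a signal, which is the number of fragments that Cuffdiff estimated for a gene from all 5 libraries of a condition, scaled between libraries and not divided by length, and the variance of that number under its model. The options of Cuffdiff and the release of the annotation are not given in the sources used here.

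From the 10 columns, log2 ratios were computed with a pseudocount of 1. Genes were called at 2 log2 units with at least 10 counts in 1 condition compared, where the status was OK. 71 genes had a failed estimate, none of them a member. With 1 value per condition there was no test between conditions, and each difference was set beside its SD under the model, the root of the summed variances. Likeness of profile was the root mean square difference of centred log2 counts, and the 5 closest genes were named. Counts per kb used the longest coding transcript of GENCODE M21 (GRCm38, the assembly that mm10 denotes), which also gave coordinates. Upstream sequences are RefSeq's on GRCm38.p6. Transcripts were compared by 30-base windows and by alignment with Biopython 1.88. All members were named, and other family genes where called. The members, lists and motifs were chosen with earlier results of these data known. The alternatives were 3 other scalings, pseudocounts of 0.1 and 10, no minimum count or one of 100, a threshold of 1, and a difference above its model SD. Calling was tested on simulated data. Python 3.11.15, numpy 2.4.6, pandas 2.3.3 and matplotlib 3.10.9 were used.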

Additional observations from a re-analysis of the deposited data

How the results depend on the processing

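Of 153 counts of called members under the alternatives, 130 were within 1.5 times the main count. Of 90 ratios of called members under other scalings and pseudocounts, 0 changed sign, and of all 320 member ratios 3 did, none of them called (Akr1b3 in C57 F2 against C57 vehicle with equal totals and with the upper quartile, and Akr1b7 in FVB DEHP against C57 F2 with equal totals). Equal totals moved the median of all genes from -0.04 to 0.25 in C57 F2 against C57 vehicle. With a threshold of 1 log2 unit, 2 members instead of 0 were lower with DEHP in C57BL/6J (Akr1b3 and Akr1c6) and 2 instead of 0 in FVB/N (Akr1b7 and Akr1cl). In C57 F2 against C57 vehicle, 2 members instead of 1 were higher with equal totals, the upper quartile, a pseudocount of 0.1 or a threshold of 1, since Akr1cl passed. With a minimum of 100 counts, 1 member instead of 2 was higher in C57 F2 against C57 DEHP and in FVB/N against C57BL/6J under vehicle and under DEHP, and the first of these also held with a pseudocount of 10. In FVB vehicle against C57 F2, the count of higher members moved from 1 to 2 with a pseudocount of 0.1, to 0 with a pseudocount of 10 or a minimum of 100, and to 3 with a threshold of 1, and that of lower members from 1 to 0, 0 and 3 with the last 3 settings. In FVB DEHP against C57 F2, higher members went from 0 to 1 with a threshold of 1, and lower members from 1 to 0 with a pseudocount of 10 or a minimum of 100 and to 2 with a threshold of 1. For the difference of DEHP effects between strains, 1 member instead of 0, Akr1b3, passed with the median of ratios or a threshold of 1. Adding the counts of Gm6644 to Akr1b3, an alternative chosen after seeing the data, changed the sign of its ratio in FVB vehicle and FVB DEHP against C57 F2, in FVB vehicle against C57 vehicle and in C57 F2 against C57 vehicle (from -0.10 to 0.04).

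No paired analysis was possible because the table holds 1 value per condition, and for the same reason leaving out a library was not run. The count of 3 taken as the limit of detection leaves Akr1cl unresolved in C57 DEHP and Akr1c18 in C57 DEHP and C57 F2, and both lay just above it in C57 vehicle.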

Other observations

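Aldehyde dehydrogenases, which oxidise the aldehydes that aldo-keto reductases reduce, were mostly lower in C57 F2 and FVB/N, and 1 of them was called. Of the 10 genes, 9 had enough counts. Their median log2 ratio was -0.93 in C57 F2 against C57 vehicle, with 7 below 0, and -0.85 in FVB vehicle against C57 vehicle, with 8 below 0, where the medians of all genes were -0.04 and -0.03. In each of these contrasts 1 of the 9 was called lower, beside 3.61% and 8.88% of all genes. The called gene, Aldh1b1 of the mitochondrion, had 135 counts in C57 vehicle, 122 in C57 DEHP, 18.5 in C57 F2, 9.58 in FVB vehicle and 14.3 in FVB DEHP. Aldh2, which clears acetaldehyde, had 4323, 3375, 1596, 1552 and 1421 counts in the same order, at log2 ratios to C57 vehicle of -1.44 in C57 F2 and -1.48 in FVB vehicle. Aldh1a7 had 542, 504, 282, 225 and 238 counts. Aldh1a1, a retinaldehyde dehydrogenase and the most counted of them, had 5735, 5545, 5119, 5648 and 4332. None of the 9 was called higher in any of the 8 contrasts. The liver markers were lower in the same 3 conditions, and their part in these values was not tested.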
